A study of Mus musculus with 10 samples.

Results

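Drug uptake and efflux transporters of the liver were examined in germ-free (GF) mice given microbiota-derived extracellular vesicles (MEV), nanosized membrane particles shed by gut bacteria. The members were chosen by gene symbol: the uptake carriers *Slco1a1*, *Slco1a4*, *Slco1b2*, *Slco2b1* and *Slc22a7*, and the efflux pumps *Abcc2*, *Abcc3*, *Abcc4* and *Abcb1a*. All 9 were found among the 12148 genes of the count table. Whole liver was sequenced from 5 wild-type, germ-free C57BL6 mice dosed by mouth with 80 μg MEV, purified from the gut contents of control mice, 2 times per week for 3 weeks (GF+MEV), and from 5 wild-type, germ-free mice of that strain given PBS alone on the same schedule (GF+PBS), 1 library per mouse. The labels give no age and no sex, and 4 Y-linked transcripts were at 9.50 CPM (counts scaled to library size) or more in every liver. Germ-free livers have never met a resident microbiota, which limits how far either group stands for a colonised animal.

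Hepatocytes clear drugs, hormones, bilirubin and bile salts from portal blood in 2 steps. Carriers of the SLCO (OATP) and SLC22 families take organic anions in across the sinusoidal membrane. ATP-driven pumps of the ABCC (MRP) and ABCB families then push the compounds or their conjugates into bile (ABCC2, P-glycoprotein) or back into blood (ABCC3, ABCC4). Transcription of these genes is known to respond to the hepatocyte factor HNF4A and to the xenobiotic sensors PXR (*Nr1i2*), CAR (*Nr1i3*), AHR and NRF2 (*Nfe2l2*).

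The 3 carriers *Slco1b2*, *Slco1a4* and *Slco1a1* lie in 1 cluster on chromosome 6 of GRCm38, from 141629518 to 141946962, and the other 6 members are spread over as many chromosomes. RefSeq promoter windows (GRCm38.p6) matched 7 members; *Slc22a7* and *Abcc3* had none in the table used. The 250 bases before the annotated start are shown for 4 members that stand for the patterns described next. *Slco1b2* was the most abundant transcript per length, *Abcc2* encodes a pump of bilirubin and drug conjugates into bile, and *Abcc4* was the member that passed the test. *Slco1a1* was the carrier whose level tended to run opposite to its neighbour *Slco1a4*, a tendency that did not pass adjustment over pairs of members. Capitals mark nuclear receptor motifs (AGGTCA) in *Slco1b2* and *Slco1a1* and an NRF2 element (TGACNNNGC) in *Abcc2* and *Abcc4*, each searched on both strands.
Slco1b2, chr6:141629268-141629517, plus strand: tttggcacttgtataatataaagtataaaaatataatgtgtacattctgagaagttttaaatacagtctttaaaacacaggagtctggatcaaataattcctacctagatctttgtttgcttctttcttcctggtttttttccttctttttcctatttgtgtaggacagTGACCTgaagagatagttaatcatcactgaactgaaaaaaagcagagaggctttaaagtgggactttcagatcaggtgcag
Abcc2, chr19:43782058-43782307, plus strand: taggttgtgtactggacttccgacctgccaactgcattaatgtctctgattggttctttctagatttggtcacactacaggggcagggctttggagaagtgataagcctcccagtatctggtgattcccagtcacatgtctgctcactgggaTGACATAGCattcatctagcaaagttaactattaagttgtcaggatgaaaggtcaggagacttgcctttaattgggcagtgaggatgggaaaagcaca
Abcc4, chr14:118706220-118706469, minus strand: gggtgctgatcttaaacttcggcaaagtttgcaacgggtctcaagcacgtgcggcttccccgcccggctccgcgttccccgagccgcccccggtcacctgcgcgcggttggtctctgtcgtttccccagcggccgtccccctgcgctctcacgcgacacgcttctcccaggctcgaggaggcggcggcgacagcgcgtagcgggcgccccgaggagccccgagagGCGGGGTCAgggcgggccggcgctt
Slco1a1, chr6:141946963-141947212, minus strand: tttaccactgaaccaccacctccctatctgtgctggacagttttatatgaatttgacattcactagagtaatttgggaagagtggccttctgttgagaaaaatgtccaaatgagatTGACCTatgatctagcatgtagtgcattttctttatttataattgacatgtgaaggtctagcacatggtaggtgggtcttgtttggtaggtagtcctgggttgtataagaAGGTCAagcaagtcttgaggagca
Of 32851 such windows, 10.2% held TGACNNNGC and 14.02% AGGTCA. Among the 10 windows of the 7 members, TGACNNNGC was found in 3 and AGGTCA in 3. Of the clock motifs, the E-box CACGTG, held by 6.02% of all windows, was found in 1 member window, upstream of *Abcc4*, and the D-box TTANGTAA, held by 2.06%, in 0. Also searched were TGTTCT of the glucocorticoid receptor, in 2 member windows against 16.1% of all, and GCGTG of AHR, in 1 against 28.2%. A match describes letters only and is not evidence of binding.

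Libraries held 15746119 to 20523649 counts on genes. GF+MEV replicate 2 had the lowest scaling factor, 0.890, and the other 9 libraries had 0.978 to 1.04. Over 300 genes chosen for their spread among GF+MEV livers, the root mean square difference of log2 CPM was 0.50 between GF+PBS replicates 4 and 5 and 0.53 between replicates 1 and 3. It was 0.68 to 0.85 for the 8 other GF+PBS pairs. Results were therefore also computed with each liver left out in turn, and with those alike GF+PBS livers summed. The 8 hepatocyte markers were at 551.8 CPM or more in every liver, and their sum was 91400 to 111200 CPM in GF+MEV livers against 92230 to 109000 CPM in GF+PBS livers, with *Tat*, *Cps1* and *Ass1* called higher in GF+MEV.

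Transcript levels of 8 of the 9 transporters were not called different between the groups, and *Abcc4* was lower in GF+MEV livers. Levels are given as CPM after TMM scaling of library sizes, and groups were compared with edgeR's quasi-likelihood test over 12147 genes. Of the 9 members, 1 passed an adjusted p of 0.05, where 7.64% of all genes did, 4.12% higher in GF+MEV and 3.52% lower. Differences are given as the log2 ratio of GF+MEV to GF+PBS with its standard error (SE). Its median was 0.004 over the 9 members and -0.0037 over all genes tested. In whole-liver RNA, fewer cells of a type and less RNA per cell cannot be told apart.

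**Figure D1:**
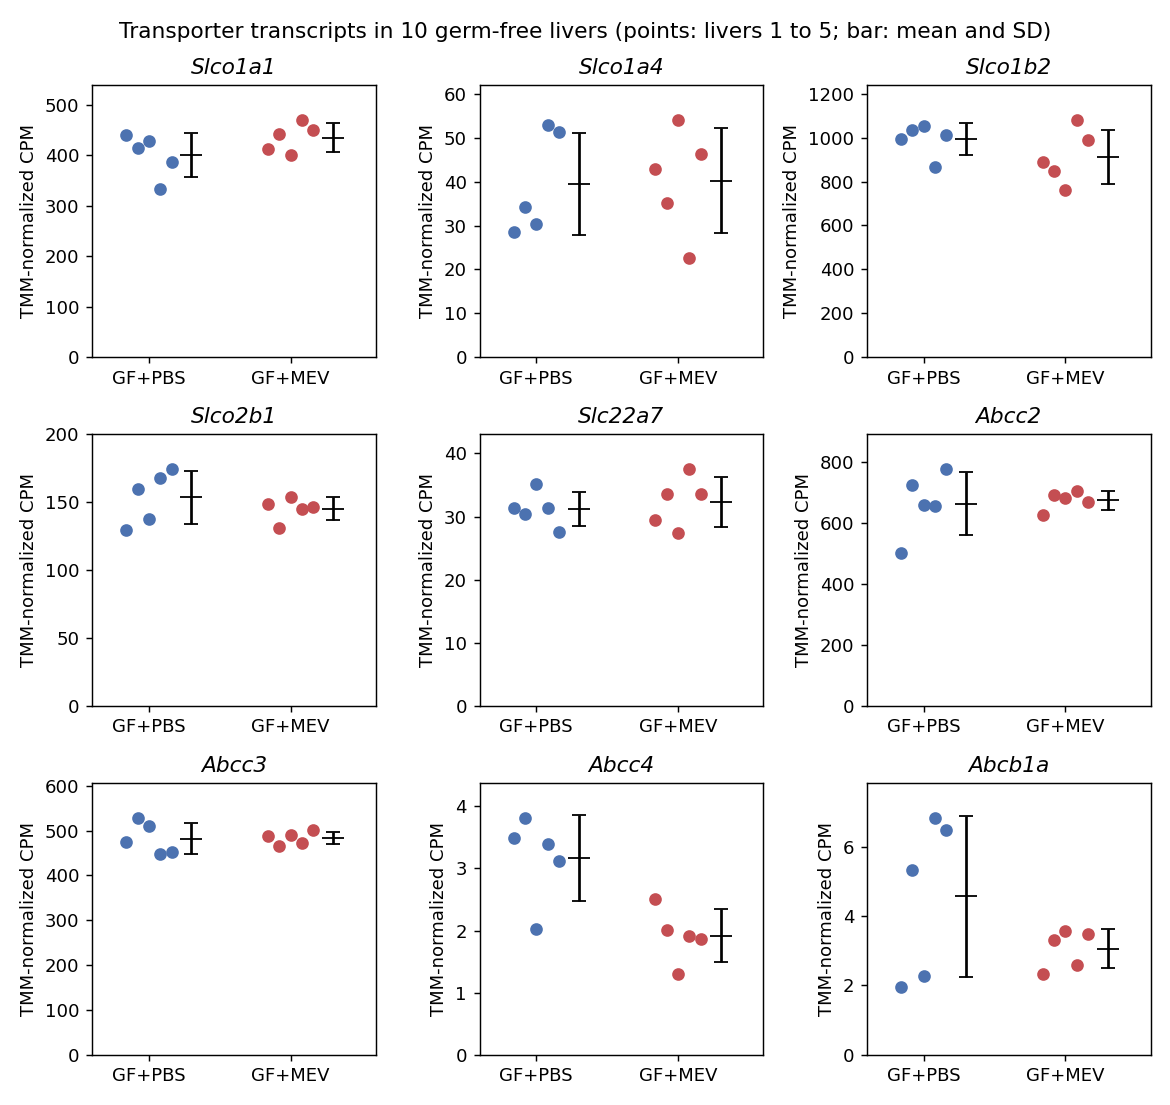
TMM-normalized CPM (y axis, from 0) of each member in the 5 GF+PBS livers (blue) and 5 GF+MEV livers (red), with the mean and SD beside the points, livers in order of replicate number. The groups overlap for all 9 members; *Abcc4* spans 1.30 to 2.50 CPM in the GF+MEV livers and 2.02 to 3.81 CPM in those given PBS, and *Abcb1a* spreads from 1.94 to 6.82 CPM within GF+PBS.

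Between members, levels were compared per length, as CPM per kb of merged exons. *Slco1b2* was highest in GF+PBS livers, at 202 ± 14.9 CPM per kb (SD, n = 5). *Abcc3*, *Abcc2* and *Slco1a1* followed at 84.6 ± 6.21, 77.6 ± 12.03 and 75.9 ± 8.18 CPM per kb, and these 3 did not differ from each other beyond their spread. *Slco2b1* (25.8 ± 3.28 CPM per kb), *Slc22a7* (14.8 ± 1.30) and *Slco1a4* (6.16 ± 1.83) were lower. The pumps *Abcb1a* (0.833 ± 0.423 CPM per kb) and *Abcc4* (0.496 ± 0.107) were the lowest and overlapped in range. The order in GF+MEV livers was the same except that *Slco1a1*, at 82.4 ± 5.35 CPM per kb, lay above *Abcc2*, at 78.9 ± 3.63. With the longest transcript as the length, *Slco1a1* came second in both groups.

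**Figure D2:**
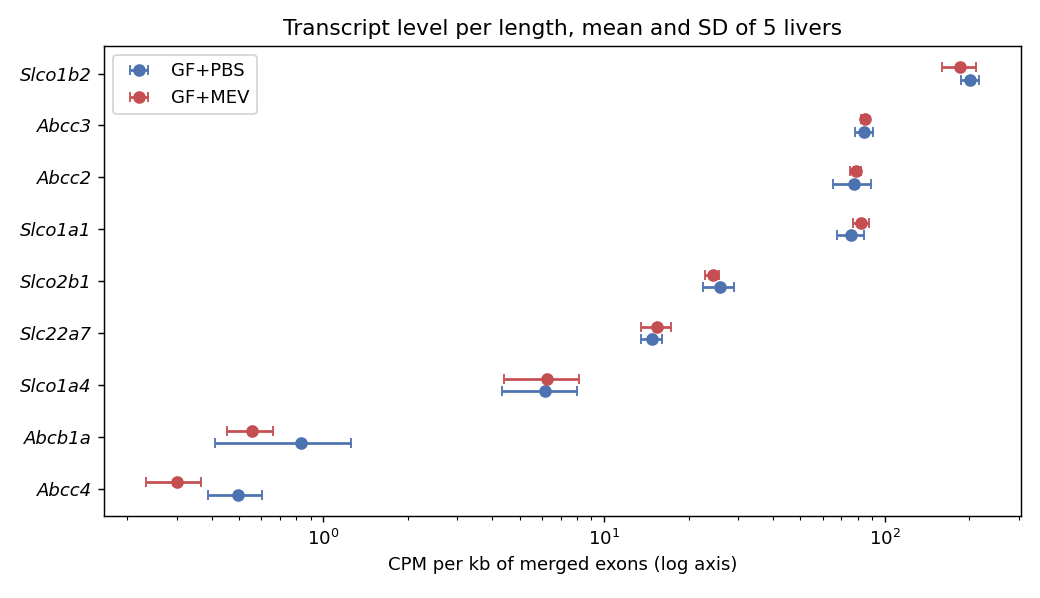
Mean level per length of each member, in CPM per kb of merged exons on a log axis, with the SD of 5 livers as bars, for GF+PBS (blue) and GF+MEV (red). *Slco1b2* is highest at 202 CPM per kb in GF+PBS, and *Abcc4* is lowest, at 0.496 in GF+PBS.

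*Slco1b2* (ENSMUSG00000030236) encodes OATP1B2, the liver-restricted carrier for statins, bilirubin and bile salts. It was 887, 849, 760.1, 1079 and 991 CPM in GF+MEV replicates 1 to 5, and 993, 1035, 1055, 869 and 1013 CPM in GF+PBS replicates 1 to 5. The lowest and the highest of the 10 livers were both GF+MEV. Its log2 ratio was -0.12 (SE 0.10, adjusted p by edgeR = 0.480), and the limma-voom 95% interval of the fold ran from 0.805 to 1.04.

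*Slco1a1* (ENSMUSG00000041698), whose product OATP1A1 takes up conjugated steroids and bile salts, was 412, 443, 400.5, 469 and 451 CPM in GF+MEV livers and 440.5, 415, 428, 332 and 386 CPM in GF+PBS livers, in order of replicate number. Every GF+MEV liver lay above the 2 lowest GF+PBS livers, but the ranges overlapped. The log2 ratio was 0.12 (SE 0.08, adjusted p by edgeR = 0.410; fold interval 0.974 to 1.22).

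*Slco1a4* (ENSMUSG00000030237), which encodes OATP1A4, a carrier of cardiac glycosides and other amphipathic compounds that PXR ligands are known to induce, varied far more. It was 42.9, 35.3, 54.0, 22.6 and 46.4 CPM in GF+MEV livers and 28.6, 34.4, 30.3, 52.9 and 51.4 CPM in GF+PBS livers. Its coefficient of variation was 29.7% in each group, and 6.79% of the 11834 genes whose mean reached 1 CPM varied more in GF+MEV and 5.35% in GF+PBS, where the median gene had 10.4% and 10.7%. The group means were nearly the same, at 40.2 ± 11.96 and 39.5 ± 11.7 CPM (SD, n = 5 each), for a log2 ratio of 0.03 (SE 0.29, adjusted p by edgeR = 0.962). Because of this spread the fold interval was wide, from 0.727 to 1.41.

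The neighbours *Slco1a1* and *Slco1a4* tended to opposite levels in the same livers. GF+MEV replicate 4 had the highest *Slco1a1* and the lowest *Slco1a4* of all 10 livers, and GF+PBS replicate 4 had the lowest *Slco1a1* and the second highest *Slco1a4*. Per kb, *Slco1a1* was 9.01 to 25.3 times *Slco1a4* in GF+MEV livers and 7.64 to 18.7 times in GF+PBS livers. Over 10 livers Pearson's r was -0.705 (permutation p = 0.0171, adjusted over 36 pairs of members 0.123) and Spearman's rho -0.709 (permutation p = 0.0271, adjusted 0.162). Without the 2 livers farthest from the median of *Slco1a1*, r was -0.574. None of the 36 pairs passed an adjusted p of 0.05 by these permutations. The alike GF+PBS livers count as separate here. These genes are close paralogs, and how reads that match several of them were counted is not given in the sources used here, so both levels are uncertain to that extent.

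*Slco2b1* (ENSMUSG00000030737), for the broad-range carrier OATP2B1, was 148, 131, 154, 145 and 147 CPM in GF+MEV livers and 129, 159.6, 137, 168 and 174 CPM in GF+PBS livers. The GF+PBS livers enclosed the GF+MEV range on both sides. Its log2 ratio was -0.08 (SE 0.09, adjusted p by edgeR = 0.622; fold interval 0.842 to 1.07). Exons of Gm15635 and Gm34280 on the other strand share 7.91% and 1.31% of its exonic length. Whether the counting used strand is not given in the sources used here.

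*Slc22a7* (ENSMUSG00000067144), for the organic anion transporter OAT2, which also moves cyclic nucleotides and prostaglandins, was 29.5, 33.6, 27.4, 37.5 and 33.6 CPM in GF+MEV livers. In GF+PBS livers it was 31.4, 30.4, 35.2, 31.4 and 27.6 CPM. The ranges nearly coincided, with a log2 ratio of 0.05 (SE 0.10, adjusted p by edgeR = 0.805; fold interval 0.902 to 1.18).

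Among the pumps, *Abcc3* (ENSMUSG00000020865) was the steadiest member. MRP3, its product, returns glucuronides to blood. It was 488, 466, 490.3, 472 and 500.3 CPM in GF+MEV livers and 474, 528, 509, 448 and 451 CPM in GF+PBS livers, with coefficients of variation of 2.86% and 7.34%. In GF+MEV, 98.4% of genes varied more. The log2 ratio was 0.0044 (SE 0.05, adjusted p by edgeR = 0.980), and the fold interval of 0.925 to 1.09 was the narrowest of the 9.

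*Abcc2* (ENSMUSG00000025194), for MRP2, which exports bilirubin and drug conjugates into bile, was 623, 689, 681, 705 and 667 CPM in GF+MEV livers. In GF+PBS livers it was 502, 723, 658, 655 and 775 CPM. GF+PBS thus held both the lowest and the highest liver. The log2 ratio was 0.02 (SE 0.11, adjusted p by edgeR = 0.926; fold interval 0.894 to 1.18).

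*Abcc4* (ENSMUSG00000032849) encodes MRP4, a basolateral pump for bile salts, cyclic nucleotides and sulfated steroids, and lies on chromosome 14 from 118482692 to 118706219. It was 2.50, 2.001, 1.30, 1.91 and 1.86 CPM in GF+MEV livers and 3.498, 3.81, 2.02, 3.39 and 3.12 CPM in GF+PBS livers, in order of replicate number. These values rest on 27 to 41 counts per GF+MEV library and 34 to 68 per GF+PBS library. Among the GF+PBS livers 4 lay above every GF+MEV liver, and replicate 3, at 2.02 CPM, lay inside the GF+MEV range. The mean fell from 3.17 ± 0.686 to 1.92 ± 0.426 CPM (SD, n = 5 each), a log2 ratio of -0.74 (SE 0.21, adjusted p by edgeR = 0.0390) and a fold of 0.599 with an interval of 0.434 to 0.821. An exact two-sided permutation test over all 252 labelings gave p = 0.0159, where the smallest possible value is 0.00794. That test was run on every member and its p is not adjusted for this. The other members had exact permutation p from 0.175 (*Slco1a1*) to 0.937 (*Abcc3*).

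The call of *Abcc4* was close to the threshold. Its fold change kept its sign under all 18 other settings, between -0.86 and -0.62 when each liver was left out in turn. The adjusted p stayed under 0.05 in 9 of the 18. It was lost without any 1 of GF+MEV replicates 2 to 5 or of GF+PBS replicates 1, 2, 4 and 5 (edgeR adjusted p from 0.0590 to 0.0949), and with the alike GF+PBS livers summed (log2 ratio -0.77, edgeR adjusted p = 0.0544). Without GF+PBS replicate 3 the adjusted p was 0.0141, and without GF+MEV replicate 1 it was 0.0296.

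**Figure D3:**
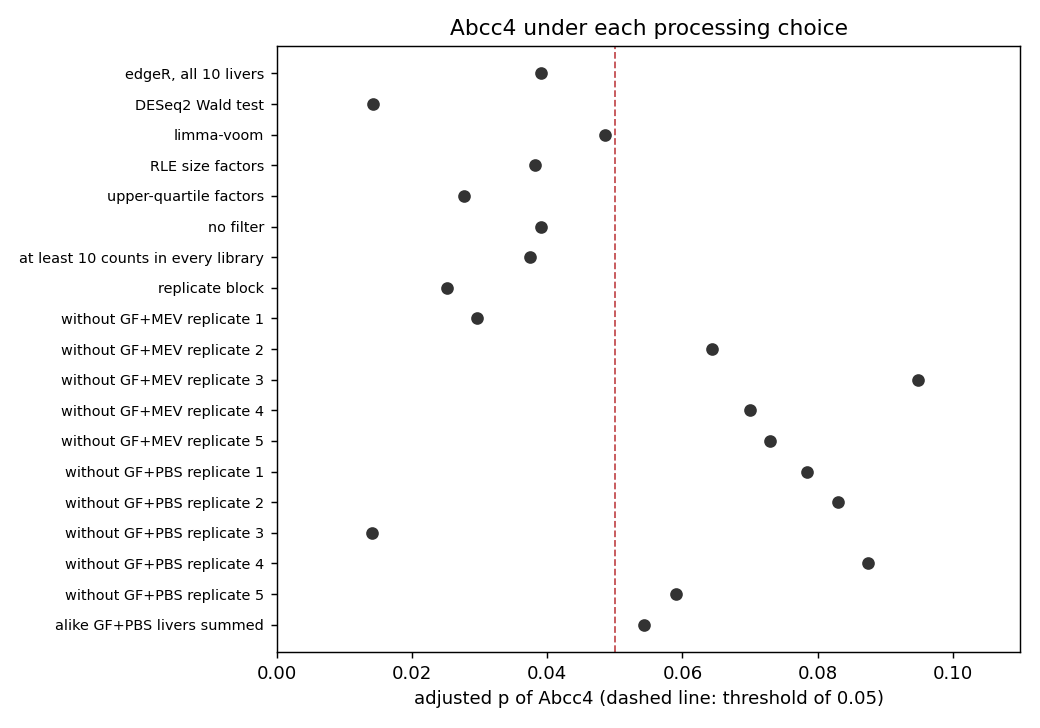
Adjusted p of *Abcc4* (x axis) under the edgeR fit with all 10 livers and 18 other settings (y axis), with the threshold of 0.05 dashed. The other tools, scalings and filters lie left of the line; 8 of the 10 settings that leave out a liver, and the fit with alike GF+PBS livers summed, lie right of it.

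Some markers of other cell types were also called between the groups, where 7.64% of all genes were. Of the 3 lymphocyte markers in the table, *Cd79a* and *Cd79b* of B cells were called lower in GF+MEV, and the summed level of the list was 2.48 to 3.66 CPM there against 5.04 to 6.42 CPM in GF+PBS. Of the 3 cholangiocyte markers in the table, *Krt19* was called higher, at a mean of 8.20 against 0.560 CPM. *Spp1* (35.7 against 24.8 CPM) and *Sox9* (0.961 against 1.88 CPM) were not called, and *Sox9* lay in the other direction. All 3 had an unadjusted p under 0.05 by edgeR, and DESeq2 and limma-voom each called 1 of the 3. The sum of the list was 28.1 to 79.3 CPM against 23.2 to 29.7 CPM. By edgeR, 0 of 6 Kupffer cell markers (190.4 to 368 CPM against 229 to 335 CPM), 0 of 6 stellate cell, 0 of 4 erythroid and 0 of 3 skeletal muscle markers were called. At an unadjusted p under 0.05 the counts were 0, 1, 0 and 1, and DESeq2 and limma-voom called 0 in each. Among 6 endothelial markers, *Lyve1* was called higher and *Clec4g* lower, with sums of 97.1 to 156 CPM against 117 to 162 CPM. No marker in the table was at 0 CPM in any liver. The part of these cells in the level of *Abcc4* was not tested.

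*Abcb1a* (ENSMUSG00000040584), for the drug pump P-glycoprotein, was the most variable member within GF+PBS. It was 2.32, 3.31, 3.57, 2.58 and 3.47 CPM in GF+MEV livers and 1.94, 5.32, 2.26, 6.82 and 6.49 CPM in GF+PBS livers, from 35 to 135 counts. GF+PBS replicates 1 and 3 lay below every GF+MEV liver and replicates 2, 4 and 5 above every one. The coefficient of variation in GF+PBS was 50.8%, which 0.549% of 11834 genes exceeded, against 18.5% in GF+MEV, where *Slco1a4* and *Abcc4* (22.3%) varied more. The log2 ratio was -0.58 (SE 0.39, adjusted p by edgeR = 0.305), with a fold interval of 0.449 to 1.24 that includes both 1 and the fold of *Abcc4*. Leaving out 1 liver moved the log2 ratio between -0.78 and -0.39 without a call. Its exons share 10.1% of their length with Gm42686 on the other strand. Its paralog *Abcb1b* is not among the genes of the count table. How reads that match both copies were counted is not given in the sources used here, so they may not be fully separated.

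By root mean square difference of log2 CPM over 10 livers, each gene centred on its mean, the gene most like *Abcb1a* among 11833 others was the clock gene *Per3*, at 0.20, against a spread of 0.59 for *Abcb1a* itself. *Nmrk1* came next at 0.27. The clock genes given here were chosen after the values of *Abcb1a* were seen. *Per3* was 19.6, 68.1, 23.1, 57.7 and 64.6 CPM in GF+PBS livers and 31.2, 36.9, 43.4, 26.5 and 31.0 CPM in GF+MEV livers. As for *Abcb1a*, GF+PBS replicates 1 and 3 were lowest and replicates 2, 4 and 5 highest. *Slco2b1* was split the same way, with 129 and 137 CPM in GF+PBS replicates 1 and 3 and 159.6 to 174 CPM in the rest. *Dbp*, a clock output factor, was 111 and 109 CPM in replicates 1 and 3 and 137 to 152 CPM in replicates 2, 4 and 5. *Arntl*, the core clock activator, was split in the other direction, with 3.61 and 4.23 CPM in replicates 1 and 3 and 1.18 to 1.92 CPM in the rest. The clock output factors *Tef* (153 and 157 CPM against 228 to 243.5 CPM) and *Hlf* (38.3 and 38.4 CPM against 45.3 to 50.6 CPM) were also lower in replicates 1 and 3. *Nfil3* was not split, with 10.7 and 6.90 CPM in replicates 1 and 3 and 8.49 to 9.41 CPM in the rest. The part of clock phase in the level of *Abcb1a* was not tested.

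**Figure D4:**
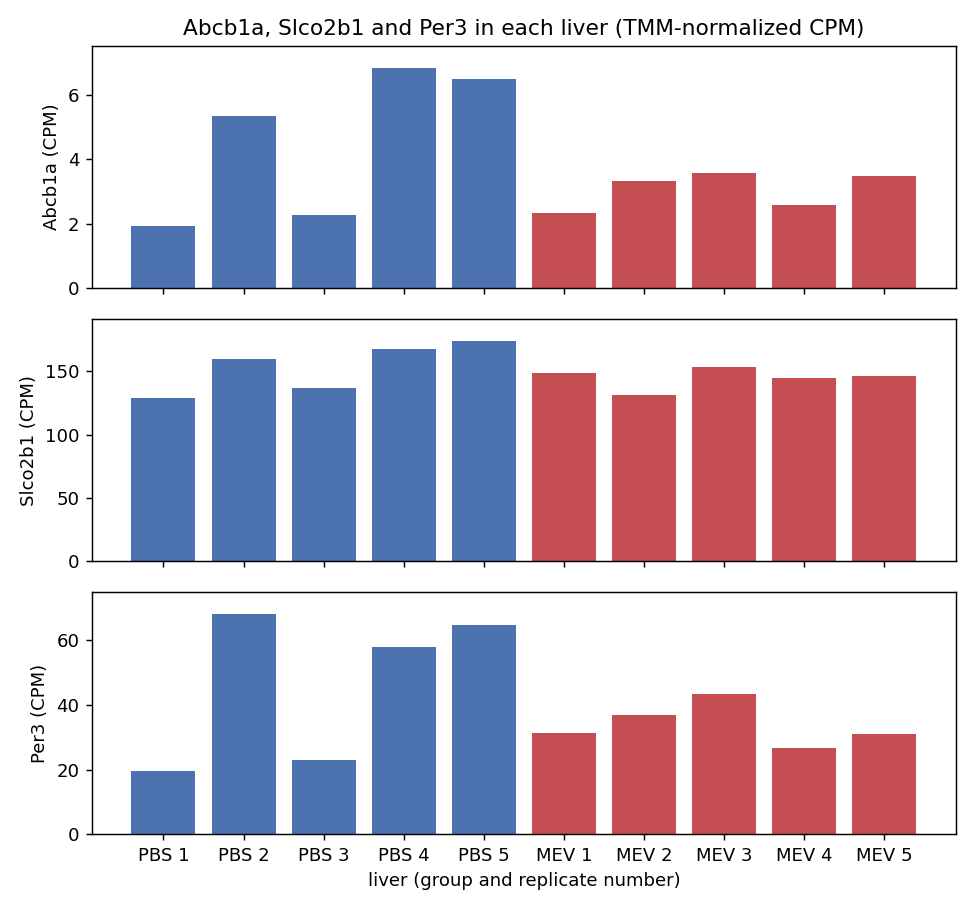
TMM-normalized CPM (y axes, from 0) of *Abcb1a*, *Slco2b1* and *Per3* in each liver (x axis), GF+PBS in blue and GF+MEV in red. GF+PBS replicates 1 and 3 are low and replicates 2, 4 and 5 high for all 3 genes, with *Abcb1a* at 1.94 and 2.26 CPM against 5.32 to 6.82 CPM.

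Of the 36 pairs of members, *Slco2b1* and *Abcb1a* had the smallest permutation p of Pearson's r over 10 livers (0.00219, adjusted 0.0788). It did not pass the adjusted threshold. Because GF+PBS livers fell into separate sets for both genes, the value of r itself is not given. Among GF+MEV livers both genes were highest in replicate 3 (154 and 3.57 CPM), whereas *Slco2b1* was lowest in replicate 2 and *Abcb1a* in replicate 1.

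For *Abcc4*, AW011738 was among the nearest genes by the same measure (0.23 on the log2 scale, against a spread of 0.46 for *Abcc4*). It was not called between the groups (edgeR adjusted p = 0.162). The gene nearest to *Slco1a4* was *Fads3*, at 0.13 against a spread of 0.41.

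Other hepatic transporters were read from lists. Of 15 tested genes in a list of other uptake carriers, 2 were called higher in GF+MEV livers and none lower. Over all genes, 4.12% were called higher and 3.52% lower. *Slc29a1*, for the nucleoside carrier ENT1, rose from 147 ± 5.48 to 185 ± 14.2 CPM (SD, n = 5 each), a log2 ratio of 0.33 (SE 0.06, adjusted p by edgeR = 0.0034). Its groups did not overlap, as for 7.39% of all genes. *Slc22a5*, for the carnitine carrier OCTN2, rose from 31.9 ± 3.10 to 40.1 ± 3.12 CPM (SD, n = 5 each), a log2 ratio of 0.33 (SE 0.08, adjusted p by edgeR = 0.018). Of 12 tested efflux genes, 1 was called, where 7.64% of all genes were. It was *Abcb4*, the phospholipid flippase of the canalicular membrane, which rose from 305 ± 6.93 to 362 ± 26.2 CPM (SD, n = 5 each). The log2 ratio was 0.25 (SE 0.05, edgeR adjusted p = 0.017). At an unadjusted p under 0.05 by edgeR, the uptake and efflux lists each held 3 genes. DESeq2 called 3 uptake genes and 1 efflux gene, and limma-voom 2 and 1. With the alike GF+PBS livers summed, *Slc22a5* (edgeR adjusted p = 0.0635) and *Abcb4* (0.0596) were not called, and without GF+PBS replicate 4 *Slc22a5* was not (0.0515). Of 6 membrane scaffold genes edgeR called 0, with 1 at an unadjusted p under 0.05, and DESeq2 and limma-voom each called 1. The medians of the 3 lists were -0.004, -0.02 and -0.093 on the log2 scale.

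Among regulators of these transporters, PXR, AHR and HNF4A transcripts rose and the NRF2 transcript fell in GF+MEV livers. Of 13 in the list, 3 were called higher in GF+MEV livers and 1 lower, with a median log2 ratio of 0.12. Over all genes, 4.12% were called higher and 3.52% lower. By edgeR, 6 of the 13 had an unadjusted p under 0.05, and DESeq2 called 5 and limma-voom 4. *Nr1i2*, which encodes PXR, was 109.8, 119.9, 104.6, 80.1 and 108 CPM in GF+MEV livers and 60.0, 67.3, 59.2, 76.3 and 70.4 CPM in GF+PBS livers. The groups did not overlap, as for 7.39% of all genes, and the log2 ratio was 0.65 (SE 0.12, adjusted p by edgeR = 8.6e-04). *Ahr* was 52.6, 77.9, 47.1, 52.6 and 55.3 CPM in GF+MEV livers against 28.98, 36.6, 32.9, 24.9 and 30.8 CPM in GF+PBS livers, a log2 ratio of 0.89 (SE 0.15, adjusted p by edgeR = 5.1e-04). *Hnf4a*, a master factor of hepatocyte identity, rose from 526 ± 36.8 to 719 ± 39.3 CPM (SD, n = 5 each; log2 ratio 0.45, SE 0.06, edgeR adjusted p = 3.6e-04).

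*Nfe2l2*, which encodes the oxidative stress factor NRF2, was 43.7, 46.7, 38.8, 45.6 and 47.7 CPM in GF+MEV livers and 59.0, 67.5, 58.5, 62.4 and 66.7 CPM in GF+PBS livers. It fell without overlap, with a log2 ratio of -0.50 (SE 0.07, adjusted p by edgeR = 3.7e-04). These 4 calls held under all 18 other settings. Not called were *Nr1i3* (log2 ratio 0.14, edgeR adjusted p = 0.491), *Ppara* (0.09, 0.815), the bile acid receptor gene *Nr1h4* (0.01, 0.957) and the glucocorticoid receptor gene *Nr3c1* (0.05, 0.784). *Tomm40l* on the other strand shares 74.9% of the exonic length of *Nr1i3*, so that level is uncertain. Exons on the other strand share 6.86% of *Slc29a1* (Gm17080) and 2.06% of *Ahr* (Gm48236).

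**Figure D5:**
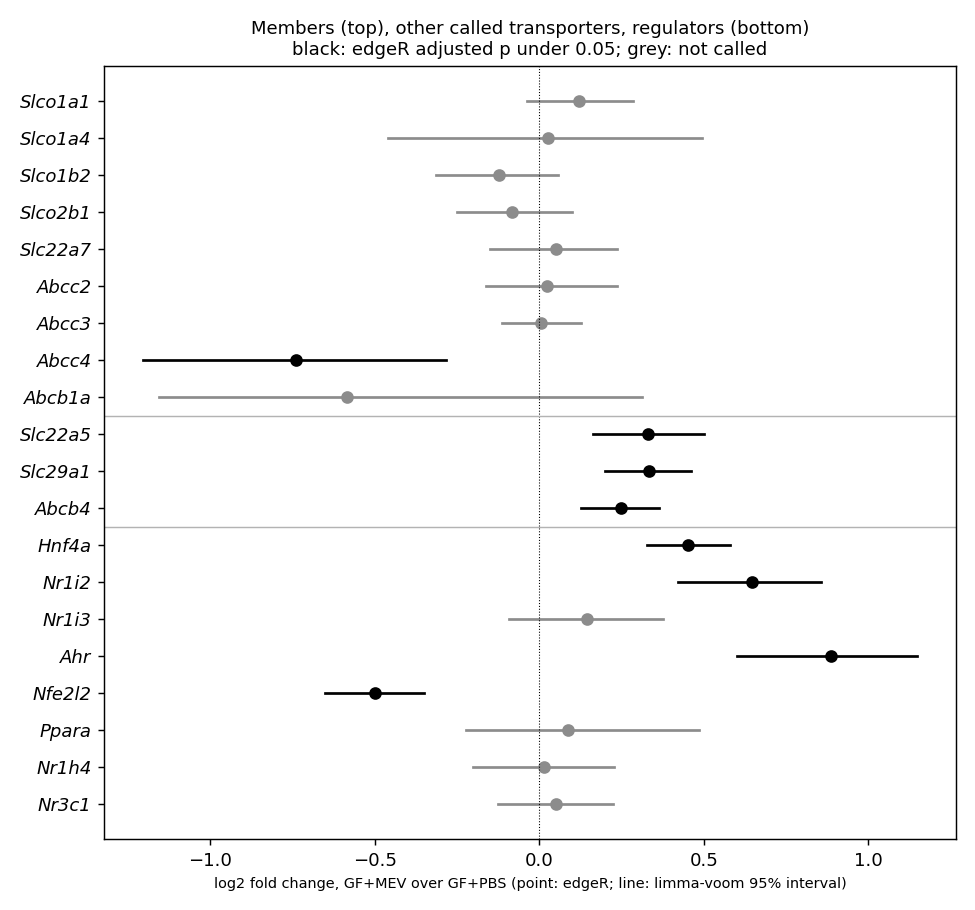
Log2 ratio of GF+MEV over GF+PBS (x axis) for the 9 members, the 3 other transporters called and 8 regulators, with the edgeR estimate as a point and the limma-voom 95% interval as a line, black where the edgeR adjusted p is under 0.05. *Nr1i2*, *Ahr* and *Hnf4a* lie at 0.65, 0.89 and 0.45 and *Nfe2l2* at -0.50, whereas 7 of the 9 members lie between -0.12 and 0.12.

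Enzyme genes listed here as targets of the same sensors were read beside the transporters. Whether each listed gene responds to its sensor in these livers was not tested. Of 13 genes in the PXR and CAR list, 4 were called lower in GF+MEV livers and none higher, where 3.52% of all genes were called lower. The 9 not called by edgeR include *Cyp3a11* and *Cyp2b10*. At an unadjusted p under 0.05 in either direction, edgeR gave 9 of the 13, and DESeq2 called 6 and limma-voom 4. *Gsta2* had a log2 ratio of -0.70 (edgeR adjusted p = 8.2e-04), *Cyp2b9* -3.01 (0.0037) and *Cyp2c29* -0.45 (0.019). The value of *Cyp2b9* was -4.08 without GF+MEV replicate 5 and -3.93 by limma-voom. Of 12 NRF2 targets, 3 were lower and none higher, namely *Osgin1* (-2.62, edgeR adjusted p = 1.6e-08), *Gsta2* and *Nqo1* (-0.51, 0.023). In that list edgeR gave 6 genes at an unadjusted p under 0.05, and DESeq2 called 4 and limma-voom 3. Of 5 AHR targets tested, *Nqo1* and *Ugt1a6a* (-0.48, edgeR adjusted p = 0.045) were lower, and *Cyp1a1*, *Cyp1a2* and *Tiparp* were not called. Of these 5, edgeR gave 3 at an unadjusted p under 0.05, and DESeq2 and limma-voom each called 2. Of 10 PPARA targets edgeR called 0, with 2 at an unadjusted p under 0.05 and 1 called by DESeq2 and 0 by limma-voom. The medians of the 4 lists were -0.24, -0.25, -0.20 and -0.086 in the order PXR and CAR, NRF2, AHR, PPARA. The fourth PXR and CAR target called was *Aldh1a1* (-0.44, edgeR adjusted p = 0.0251). Of the exonic length of *Ugt1a6a*, 50.3% is shared with *Ugt1a7c* and 30.4% with *Ugt1a1* on the same strand. The call of *Nqo1* was lost without GF+MEV replicate 1, GF+PBS replicate 4 or GF+PBS replicate 5 (edgeR adjusted p from 0.0516 to 0.0617). That of *Cyp2c29* was lost without GF+PBS replicate 3 (edgeR adjusted p = 0.0521) and with alike livers summed (0.0877). That of *Ugt1a6a* was lost with alike livers summed and without any 1 of GF+MEV replicates 1, 3 and 4 or GF+PBS replicates 2 to 5 (edgeR adjusted p from 0.0511 to 0.109). *Gsta2* and *Nqo1* stand in 2 lists each.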

How the data were processed

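Whole-liver RNA of 10 mice was analysed. Reads were mapped by the authors to GRCm38 using STAR 2.7.3a and counted per gene using HTSeq. The authors left out genes with fewer than 20 counts, and deposited raw counts without normalization; strand settings are not given in the sources used here. Of the table, 5 columns match no labelled sample and were not used. Symbols, positions and merged exon lengths came from GENCODE M21.

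Genes with at least 20 counts over the 10 livers were fitted with edgeR 4.0.16 in R 4.3.3 (TMM, quasi-likelihood, treatment group alone, Benjamini-Hochberg adjustment, threshold 0.05). SEs were taken from the 5 log2 CPM values per group (prior count 2), and 95% intervals from limma-voom 3.58.1. Single values were compared by exact permutation tests, and pairs of members by 100000 permutations. The fits were first tested on simulated counts. The labels name separate mice but no cages or batches, so p-values measure the spread between these samples.

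The members and lists were chosen with earlier results of these data known. Named were the members, the xenobiotic sensors and nuclear receptors listed, called genes of the transporter, scaffold and regulator lists, up to 3 called genes per target list, and the 2 genes most like each called member; a few results under this rule are not reported here. Alternatives were DESeq2 1.42.0, limma-voom, other scalings and filters, a replicate block, alike livers summed, and each liver left out.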

Additional observations from a re-analysis of the deposited data

Results flagged for a closer look

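Among 54 groups of 5 values, 3 held a liver far from the rest of its group by Dixon's ratio, where chance alone gives 2.7. None of them was a member. *Slc29a1* was 160.7 CPM in the liver of GF+MEV replicate 4 while the rest of that group had 189 to 197 CPM. *Ahr* was 77.9 CPM in GF+MEV replicate 2, against 47.1 to 55.3 CPM. *Nqo1* was 7.26 CPM in GF+MEV replicate 1, against 8.79 to 9.18 CPM.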

How the results depend on the processing

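Of the 9 members, the 8 not called stayed so under all 18 other settings. Summing the alike GF+PBS livers left 561 genes called in place of 928, 0 members, 4 target enzymes in place of 7, *Abcc4* at -0.77 (edgeR adjusted p = 0.0544) and *Abcc3* at -0.0074. Upper-quartile factors, under which 41.2% of called genes were higher in place of 53.9%, turned the sign of 3 members that were not called and of *Nr1h4*: *Slco1a4* to -0.013, *Abcc2* to -0.016, *Abcc3* to -0.037 and *Nr1h4* to -0.026 (-0.027 with livers summed). The exact permutation p of these members was then 0.952, 0.889 and 0.452. With upper-quartile factors the median log2 ratio over all genes was -0.0459, in place of -0.0037. Leaving out each liver gave 0 to 1 members, 4 to 8 target enzymes (4 without GF+PBS replicate 3) and 696 to 926 genes called, and log2 fold changes of -0.86 to -0.62 for *Abcc4*, -0.062 to 0.085 for *Abcc2*, -0.021 to 0.039 for *Abcc3*, -0.0091 to 0.11 for *Slc22a7*, -0.11 to 0.18 for *Slco1a4*, -0.063 to 0.10 for *Nr1h4*, -0.015 to 0.079 for *Nr3c1* and -0.045 to 0.22 for *Ppara*. Per kb of the longest transcript, GF+PBS levels were 300.3 for *Slco1b2*, 102.5 for *Slco1a1*, 96.3 for *Abcc3*, 35.1 for *Slco2b1* and 10.3 for *Slco1a4*. The replicate numbers of the 2 groups did not pair the livers (correlations of -0.151 to 0.141 over 500 genes). A replicate block gave 792 calls, 1 member (*Abcc4* at -0.72, edgeR adjusted p = 0.0252) and no call of *Abcb4* (edgeR adjusted p = 0.0528). The cause of these shifts was not tested, except that leaving out or summing livers reduces n. Among the members, the lowest counts were those of *Abcc4* and *Abcb1a*, at 27 to 135 per library, and a part of depth in their intervals was not tested. Other genes named here had counts as low or lower, such as *Cyp2b9* with 5 to 148 per GF+MEV library and *Arntl* with 21 to 71 per library.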

Other observations

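Some zonation genes were called in both lists, where 7.64% of all genes were called. The median log2 ratio was 0.116 over the periportal list and 0.002 over the pericentral list. Of 8 periportal genes, 3 rose in GF+MEV livers and 0 fell, namely *Pck1* (gluconeogenesis; 2122 to 6921 CPM), *Sds* (serine breakdown; 106 to 318 CPM) and *Arg1* (urea cycle; 1125 to 1397 CPM). Of 7 pericentral genes tested, *Axin2*, a Wnt target, fell from 8.72 to 4.32 CPM, and the rest were not called. In the pericentral list edgeR gave 4 genes at an unadjusted p under 0.05, and DESeq2 and limma-voom each called 1. Just outside the threshold, and chosen after its values were seen, was *Ezr* of the scaffold list. It had a log2 ratio of 0.65 (edgeR adjusted p = 0.0509).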
